A study of Mus musculus with 6 samples.

Results

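The 9 POU genes described here, Pou5f1, Pou3f1, Pou2f1, Pou2f2, Pou2f3, Pou3f2, Pou3f3, Pou4f2 and Pou6f1, were taken by name from the 24736 genes of the deposited expression table, by a rule that uses no measured value. They encode transcription factors, among them OCT4 (Pou5f1), OCT6 (Pou3f1) and relatives in other classes of the family. RNA from 2 groups of mouse cells was sequenced, with 3 biological replicates of each. Embryonic stem cells (ESCs, 0 h) were undifferentiated, wild-type and grown with 10% serum and 1000 U/ml LIF. Epiblast-like cells (EpiLCs, 48 h) were derived from the same wild-type cells in serum-free N2/B27 medium that contained 10 ng/ml bFGF and 5 µM LGK974, which blocks the secretion of WNT ligands. Both groups come from a single XY line (HM1 TetON), so the replicates are cultures and not animals. The ESCs were kept on feeder cells and plated to remove these before differentiation. The culture methods of the study give a time that is a day longer for EpiLCs than the sample labels do, and the time in the labels is used here.

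POU factors bind DNA through 2 linked domains, the POU-specific domain and the POU homeodomain, and many of them recognise the octamer ATTTGCAT or close variants of it. Classes are numbered by similarity of the domain, so that Pou2 genes (OCT1, OCT2 and OCT11) form class II, Pou3 genes (OCT6, BRN1, BRN2, BRN4) class III, Pou4 genes (BRN3 factors) class IV, Pou5 genes class V and Pou6 genes class VI. OCT4 is required for pluripotency and often binds beside SOX2, whereas OCT6 is known as a factor of the post-implantation epiblast, of neural progenitors and of myelinating Schwann cells.

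The domain is similar enough between classes that the sequences are shown before their levels, since reads of 76 nt have to be assigned to one gene or another. The coding stretches of read length in which Pou5f1 and Pou3f1 are most alike lie in the POU-specific domain and match at 62 of 76 bases. They are printed from 5′ to 3′ along the coding strand (GRCm38, transcripts of GENCODE vM21), with the 14 bases that differ in capitals. The Pou5f1 stretch crosses an exon junction (chr17:35509217-35509223 and chr17:35509408-35509476, plus strand), and the Pou3f1 stretch lies within its single exon (chr4:124658547-124658622, plus strand).
Pou5f1: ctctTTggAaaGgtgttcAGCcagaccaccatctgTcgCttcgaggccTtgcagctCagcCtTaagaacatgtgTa
Pou3f1: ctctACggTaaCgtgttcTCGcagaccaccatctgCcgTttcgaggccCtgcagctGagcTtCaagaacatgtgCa

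Within class III the similarity is greater. The most alike stretches of Pou3f1 (chr4:124658550-124658625, plus strand) and Pou3f2 (chr4:22487156-22487231, minus strand) match at 72 of 76 bases, and capitals mark the 4 that differ.
Pou3f1: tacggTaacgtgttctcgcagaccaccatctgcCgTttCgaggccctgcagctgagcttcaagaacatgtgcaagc
Pou3f2: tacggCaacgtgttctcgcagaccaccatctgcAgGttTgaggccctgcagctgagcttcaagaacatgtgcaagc
Pou3f1 and Pou3f3 also matched at 72 of 76 bases, Pou3f2 and Pou3f3 at 69, and Pou2f2 and Pou2f3 at 68. No stretch of 76 bases was shared exactly between any of the 9 genes, nor with another annotated gene except for 20 of the 8739 such stretches of Pou2f2 (0.229%). The expected counts of 8 of the 9 genes were whole numbers in every library within a tolerance of 0.001, as they are where no read is divided between genes. Pou5f1 was the exception.

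Library totals lay between 16967741 and 35096210 expected counts, and 3 counts, the smallest number taken as detection, corresponded to 0.0855 to 0.177 CPM (counts scaled to equal library totals), which covers counting error only. In ESCs the summed level of 9 naive markers was 2031 to 2706 TPM (a level scaled for transcript length and library), against 61.5 to 85.8 TPM in EpiLCs, and all 9 were lower in EpiLCs. Conversely, 7 of 7 EpiLC markers were higher, from a sum of 358 to 525 TPM to one of 2172 to 2301 TPM. Both marker lists were chosen with earlier results of these data known, so they are no independent check of the labels. Of 13 fibroblast markers, 12 could be tested, 6 were lower in EpiLCs, 6 were not called and none was higher. Their sum was 357, 1674 and 128 TPM in ESC replicates 1, 2 and 3 and 87.7 to 96.8 TPM in EpiLCs, so ESC replicate 2 stood apart. In bulk RNA, fewer cells of a type and less RNA per cell cannot be told apart.

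Among the 9 POU genes, expression of Pou5f1 and Pou2f1 was high or moderate in both states, Pou3f1 and Pou2f2 rose, and Pou2f3, Pou4f2 and Pou6f1 fell. The quasi-likelihood test of edgeR was run over the 14468 genes with enough counts, with calls at an adjusted p of at most 0.05, and log2 fold changes are EpiLC over ESC. Of the 9 genes, 7 could be tested and 5 of these were called, whereas 45.4% of all genes tested were called. The 2 higher and 3 lower POU genes stand beside 22.6% of all genes tested called higher and 22.8% called lower. For 7 of the 9 genes the TPM ranges of the groups did not overlap, which was the case for 59.5% of the genes tested and 49.4% of all genes with a TPM above 0. The median log2 fold change of the 7 genes was -0.27, against -0.0017 for all genes tested. Without ESC replicate 2, 3 of them were higher, Pou3f2 being added, and 3 were lower.

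**Figure D1:**
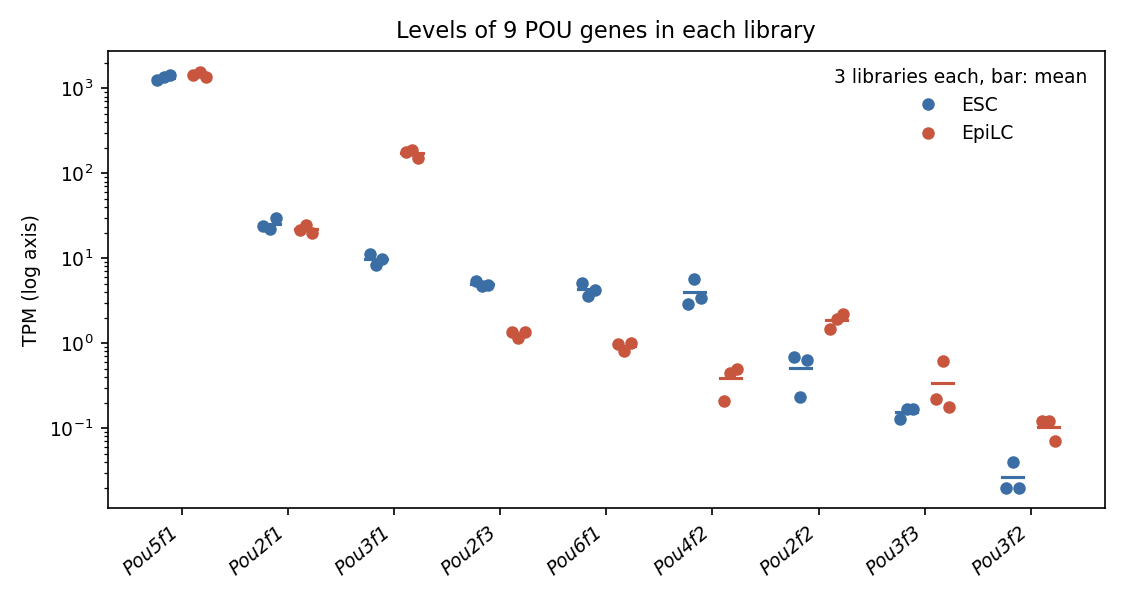
TPM of the 9 POU genes in each of the 6 libraries (points, 3 ESC and 3 EpiLC, left to right by replicate number) with group means as bars, on a log axis. Pou3f1 moves from 8.36 to 11.3 TPM in ESCs to 150 to 186 TPM in EpiLCs, whereas the Pou5f1 points of both groups overlap at 1237 TPM or more.

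Pou5f1 (chromosome 17, 35506032 to 35510777, plus strand, 5 exons in its longest coding transcript) had 1237, 1351 and 1418 TPM in ESC replicates 1 to 3, and 1425, 1574 and 1355 TPM in EpiLC replicates 1 to 3, the order kept for all genes that follow. The ranges overlapped, and its level ranked between 104 and 120 among all genes in every library. Its mean was 1335 ± 91.8 TPM (SD, n = 3) in ESCs and 1451 ± 112 TPM (n = 3) in EpiLCs, and the log2 fold change of 0.07 (SE 0.08, edgeR adjusted p = 0.496) had a 95% interval from -0.12 to 0.26. A change in either direction beyond a ratio of 0.920 or 1.20 thus lay outside the interval.

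The promoter of Pou5f1 is known to be bound by SP1-type factors and by nuclear receptors, whose genes are described further on, so its sequence is shown. It covers the 250 bases before the first of its 2 annotated starts (chr17:35505782-35506031, plus strand, RefSeq on GRCm38.p6). Capitals mark GGGCGG, the GC box, at 45 to 40 bases before the start, and AGGTCA, a hexamer that nuclear receptors bind, at 33 to 28 bases before it.
Pou5f1 promoter: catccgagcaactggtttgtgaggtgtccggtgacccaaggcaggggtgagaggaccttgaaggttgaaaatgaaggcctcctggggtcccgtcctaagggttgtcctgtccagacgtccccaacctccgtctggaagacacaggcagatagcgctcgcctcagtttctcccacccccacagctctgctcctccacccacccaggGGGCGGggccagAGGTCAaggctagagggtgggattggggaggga
Of the 9 genes, 7 have a promoter in the table used, with 10 starts in all, and both strands of the 250 bases before each start were searched. AGGTCA was found at 1 of the 10 starts, this one, and at 14.0% of 32851 starts of all genes. GGGCGG was found at 7 of the 10 starts, 1 for each of the 7 genes, and at 32.7% of all starts. The full octamer ATTTGCAT was at none of the 10 starts and at 1.60% of all. These are matches of letters and not measured sites.

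Pou3f1 (chromosome 4, 124657646 to 124660655, plus strand, a single exon) showed the largest change of the 7 genes tested. Its level was 11.3, 8.36 and 9.69 TPM in ESCs and 178, 186 and 150 TPM in EpiLCs. Every EpiLC library was above every ESC library, and the replicates of each group lay close together (9.80 ± 1.49 and 172 ± 19.2 TPM, SD, n = 3 each). Expression rose 16.8-fold (95% interval 13.4 to 21.1), a log2 fold change of 4.07 (SE 0.14, edgeR adjusted p = 1.66e-05). By the size of its log2 rise it ranked 42 among the 14468 genes tested. Its place in the order of TPM moved from between 8087 and 8984 in ESCs to between 870 and 1130 in EpiLCs. The ESC level was well above detection, with 353, 199 and 392 expected counts.

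Levels of the other class III genes were far lower. Pou3f2 (BRN2, a neural factor, chromosome 4, 22482095 to 22488366) had 1, 2 and 2 counts in the ESC replicates and 13, 12 and 6 in the EpiLC replicates. These do not overlap, but they were too few for the filter on low counts, and the ESC counts do not exceed the 3 counts taken as detection. The pooled level was 0.0740 CPM in ESCs and 0.311 CPM in EpiLCs, a ratio of 4.20 with a counting interval from 1.62 to 13.8. An exact permutation test of the 3 against 3 libraries gave p = 0.1, the smallest it can give. With no filter, edgeR called it higher (log2 fold change 1.95, adjusted p = 0.0383). It also passed the filter and the threshold without ESC replicate 2 (adjusted p = 0.0291) or EpiLC replicate 3 (adjusted p = 0.0293), and passed only the filter without ESC replicate 1 (adjusted p = 0.0788) or ESC replicate 3 (adjusted p = 0.0681).

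Pou3f3 (BRN1, chromosome 1, 42695768 to 42700210), which acts in the developing cortex and kidney, had 4, 4 and 7 counts in ESCs and 11, 30 and 8 in EpiLCs. EpiLC replicate 2 held most of the EpiLC counts, and EpiLC replicate 3 was 1 count above the highest ESC library. The ratio of pooled CPM was 2.21 (counting interval 1.22 to 4.25), the exact permutation test gave the same smallest p = 0.1, and edgeR with no filter gave a log2 fold change of 1.09 (adjusted p = 0.195). Pou3f4 (BRN4, on chromosome X), which is not among the 9 genes, was at 0.45, 0.37 and 0.28 TPM in ESCs and 0.80, 1.08 and 0.64 TPM in EpiLCs. It was called higher (log2 fold change 1.16, SE 0.30, edgeR adjusted p = 0.0194), but not without EpiLC replicate 1 (adjusted p = 0.0622) or EpiLC replicate 2 (adjusted p = 0.0756).

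Of 8 neural markers, 7 could be tested, 4 were higher and 3 not called, and their sum was 66.0 to 102 TPM in ESCs and 161 to 177 TPM in EpiLCs. Tubb3, a tubulin of neurons, made up most of this sum (65.8 ± 16.4 and 121 ± 7.99 TPM, n = 3 each), and Sox1, a factor of neural progenitors, was at 0.530 ± 0.220 and 0.597 ± 0.240 TPM. Their part in the values of the class III genes was not tested.

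The class II genes went 3 ways. Pou2f1 (OCT1, chromosome 1, 165865150 to 166002749, minus strand), the widely expressed member of the family, had 23.9, 22.2 and 30.0 TPM in ESCs and 21.5, 24.6 and 19.6 TPM in EpiLCs. The ranges overlapped, and the log2 fold change of -0.27 (SE 0.13, edgeR adjusted p = 0.142) had a 95% interval from -0.59 to 0.05. A fall of up to a ratio of 0.665 lay within that interval. ESC replicate 3 was highest, and without it the log2 fold change of Pou2f1 was -0.11 (edgeR adjusted p = 0.372), the value nearest 0 in a range that reached -0.36 when other libraries were left out.

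Pou2f2 (OCT2, chromosome 7, 25087350 to 25180797, minus strand), which is best known from B cells, was at 0.68, 0.23 and 0.63 TPM in ESCs and 1.48, 1.92 and 2.18 TPM in EpiLCs. These values rest on 23, 6 and 28 counts and on 81, 100 and 104 counts, and the groups did not overlap. Expression rose 3.42-fold, a log2 fold change of 1.78 (SE 0.39, edgeR adjusted p = 0.00998). ESC replicate 2 was lowest, and without it the log2 fold change was 1.46 (adjusted p = 0.00614). Of 6 B cell markers, 2 could be tested. Cd79b was lower, Cd79a was not called and Ms4a1 was listed at 0 in every library. Their sum was 1.96 to 4.91 TPM in ESCs and 1.12 to 2.17 TPM in EpiLCs.

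Pou2f3 (OCT11, chromosome 9, 43123927 to 43205755, minus strand), a factor of keratinocytes and of tuft cells, was measured at 5.47, 4.69 and 4.83 TPM in ESCs and 1.34, 1.16 and 1.36 TPM in EpiLCs. Its replicates were the most even of the genes that fell. The fall was 4.02-fold, a log2 fold change of -2.01 (SE 0.19, edgeR adjusted p = 3.71e-04). Of 5 tuft cell markers, Gnat3 was listed at 0 in every library and Trpm5 was at or below 0.0100 TPM on average in both groups. Only Dclk1 passed edgeR's filter, and it was not called (log2 fold change 0.30, adjusted p = 0.573). DESeq2 and limma called 0 of the list's genes, and 0 had an unadjusted p under 0.05 in any of these tests. The sum of the 5 was 2.27 to 7.77 TPM in ESCs and 5.03 to 6.58 TPM in EpiLCs.

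Pou4f2 (BRN3B, chromosome 8, 78433009 to 78436647, minus strand, 2 exons), which acts in retinal ganglion cells, fell most of the 3 genes that fell. Its TPM was 2.92, 5.74 and 3.42 in ESCs and 0.21, 0.45 and 0.50 in EpiLCs, from 97, 146 and 148 counts and from 11, 23 and 23 counts. Even the lowest ESC library was above the highest EpiLC library. The fall was 10.7-fold, a log2 fold change of -3.42 (SE 0.42, edgeR adjusted p = 9.93e-04). ESC replicate 2, the library with the highest fibroblast markers, was also the highest for Pou4f2, and without it the log2 fold change was -3.09 (adjusted p = 0.00102). Of 5 markers of retinal ganglion and sensory neurons, Atoh7 was listed at 0 in every library, Rbpms and Prph were higher and Isl1 was not called. Their sum of 186 to 242 TPM in ESCs and 323 to 331 TPM in EpiLCs was mostly that of Rbpms, which other cells express too.

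Its class IV relatives, which are not among the 9 genes, were not called. Pou4f1 (BRN3A, of sensory neurons) was at 1.09, 1.82 and 2.01 TPM in ESCs and 2.28, 2.81 and 2.30 TPM in EpiLCs, a log2 fold change of 0.53 (SE 0.27, edgeR adjusted p = 0.144). Pou4f3 (BRN3C, of inner ear hair cells) had 12, 3 and 5 counts in ESCs and 11, 22 and 18 in EpiLCs (log2 fold change 0.73, edgeR adjusted p = 0.301). The lower level of Pou4f2 was therefore not accompanied by a called fall of Pou4f1 or Pou4f3.

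Pou6f1 (BRN5, chromosome 15, 100575318 to 100600061, minus strand), a class VI factor known from the nervous system, was at 5.15, 3.57 and 4.22 TPM in ESCs and 0.97, 0.80 and 1.00 TPM in EpiLCs. The groups were well apart, with 134 to 267 counts in ESCs and 61 to 75 in EpiLCs. The fall was 4.85-fold, a log2 fold change of -2.28 (SE 0.20, edgeR adjusted p = 3.27e-04). The summed fibroblast markers, too, were higher in each ESC library than in each EpiLC library. Without ESC replicate 2, in which they were highest, the log2 fold changes were -2.40 for Pou6f1 and -2.05 for Pou2f3. Its promoter was the only one among the 10 starts with TTTGCAT, the octamer without its first base, which 4.12% of all starts hold. The 170 bases printed run from 250 to 81 bases before the annotated start and lie outside the gene (chr15:100600065-100600234, minus strand, RefSeq on GRCm38.p6), and capitals mark the match at 138 to 132 bases before the start.
Pou6f1 promoter: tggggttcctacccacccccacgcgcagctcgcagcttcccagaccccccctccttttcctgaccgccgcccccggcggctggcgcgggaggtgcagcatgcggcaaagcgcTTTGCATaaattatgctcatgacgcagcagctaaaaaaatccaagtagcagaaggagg

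The rest of the family added little. Pou5f2 had 2, 0 and 0 counts in ESCs and 2, 1 and 0 in EpiLCs. Pou1f1, the factor of pituitary cells, was listed at 0 in every library. Of the POU genes beyond the 9, Pou3f4 was called higher, and Pou4f1 and Pou4f3 were not called.

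**Figure D2:**
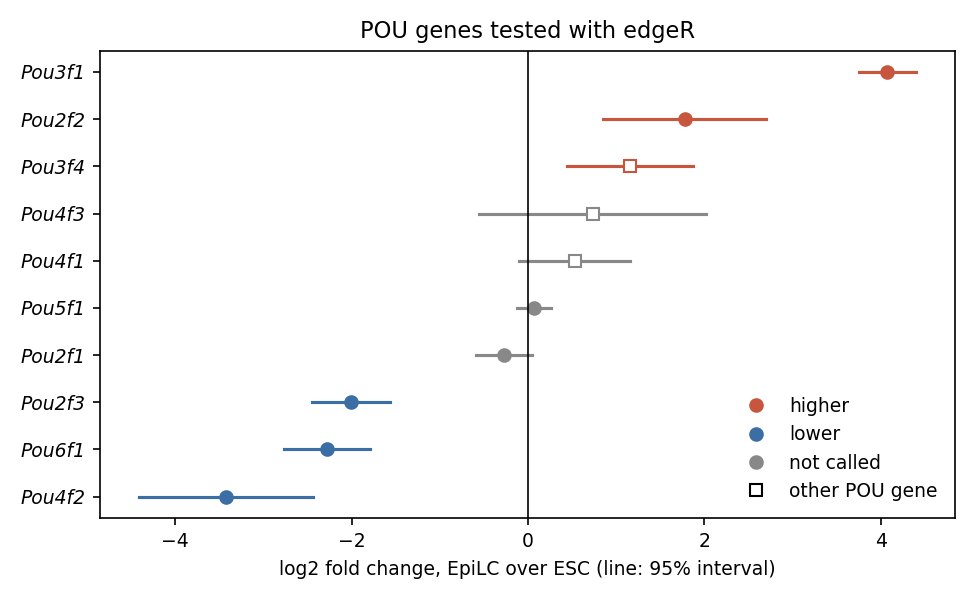
Log2 fold change, EpiLC over ESC, of POU genes tested with edgeR (3 libraries per group), with 95% intervals as lines. Filled circles are members of the 9 genes and open squares other POU genes, red marks higher and blue lower genes at an adjusted p of at most 0.05. Pou3f1 (4.07) and Pou4f2 (-3.42) lie at the ends, and the intervals of Pou5f1 and Pou2f1 cross 0.

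Because TPM is scaled for length, levels of the POU genes can be set beside each other within a library. Summed over 15 POU genes, POU transcripts were 1289, 1398 and 1474 TPM in the ESC replicates and 1633, 1796 and 1535 TPM in the EpiLC replicates. Pou5f1 made up 95.9% to 96.6% of this sum in ESCs and 87.3% to 88.3% in EpiLCs. Pou3f1 made up 0.598% to 0.880% in ESCs and 9.76% to 10.9% in EpiLCs, and the share of the 13 others was 2.80% to 3.18% and 1.82% to 1.95%. For each Pou3f1 transcript there were 109, 162 and 146 Pou5f1 transcripts in the ESC replicates, and 7.99, 8.45 and 9.05 in the EpiLC replicates. The log2 ratio of Pou3f1 to Pou5f1 TPM was -7.10 ± 0.30 in ESCs and -3.08 ± 0.09 in EpiLCs (SD, n = 3 each), a difference of 4.02, or 16.2-fold. The groups were fully separate, and an exact two-sided permutation test gave p = 0.1, the smallest that 3 against 3 libraries allow.

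**Figure D3:**
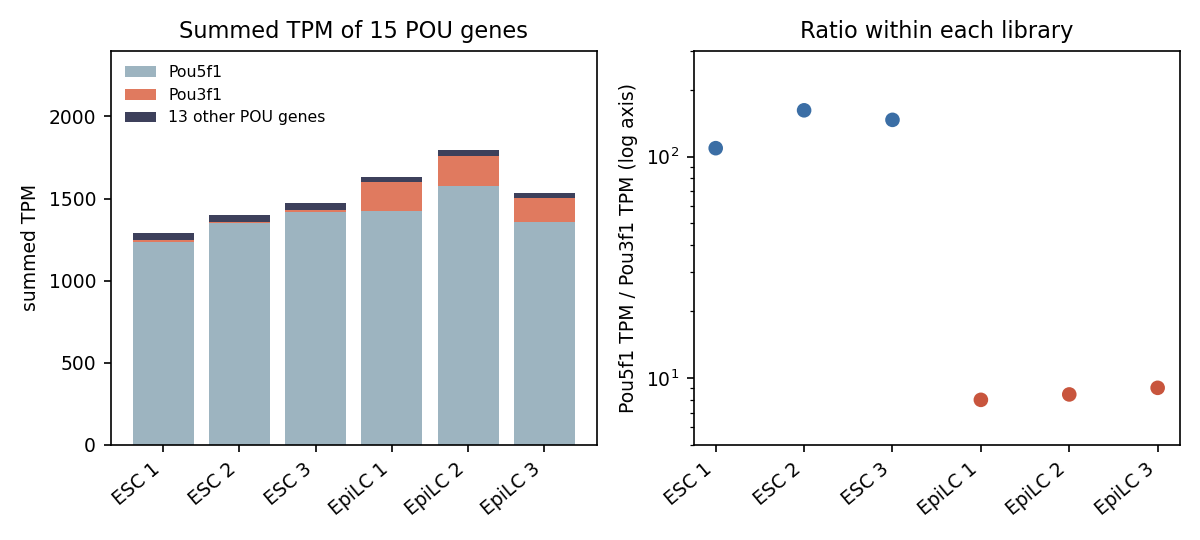
Left, summed TPM of 15 POU genes per library, split into Pou5f1, Pou3f1 and 13 others. Right, the ratio of Pou5f1 to Pou3f1 TPM per library on a log axis (blue ESC, red EpiLC), which lies between 109 and 162 in ESCs and between 7.99 and 9.05 in EpiLCs.

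The order of the genes by TPM changed at its second place. In ESCs, Pou5f1 was followed by Pou2f1, Pou3f1, and then Pou2f3, Pou6f1 and Pou4f2, whose ranges overlapped each with the next. Below them came Pou4f1 (1.64 TPM on average), then Pou4f3, Pou2f2 and Pou3f4, which also overlapped in turn, and the rest were at or below 0.157 TPM on average. In EpiLCs, Pou5f1 was followed by Pou3f1, Pou2f1, Pou4f1 and Pou2f2 without overlap between neighbours. The ranges of Pou2f3, Pou4f3, Pou6f1 and Pou3f4 overlapped each with the next (0.84 to 1.29 TPM on average), and Pou4f2 was at 0.387 TPM.

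For genes with several isoforms, RSEM derives a length from the isoforms counted, which can be recovered as the expected count over TPM and set relative to the median gene of the library. Pou5f1, Pou3f1 and Pou2f1 had enough counts for this in every library (at least 50 counts and 1 TPM). The relative length of Pou5f1 was 0.384 ± 0.00427 in ESCs and 0.385 ± 0.00160 in EpiLCs, that of Pou3f1, which has a single transcript, was 1.0153 in ESCs and 1.0149 in EpiLCs, and that of Pou2f1 was 4.445 in ESCs and 4.441 in EpiLCs. Exact permutation tests gave p = 0.8, p = 0.5 and p = 0.3 (adjusted over the 3 genes 0.8, 0.75 and 0.75), and the largest difference was 0.317%. With 3 against 3 libraries these exact permutation tests cannot go below p = 0.1, so they cannot pass the threshold. For Pou5f1, 15.5% of 10671 genes had a larger shift between the group means, and for Pou2f1 28.0%. The measure does not see isoforms of equal length.

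Genes that act with or through POU factors were described by lists from textbook knowledge, chosen with earlier results of these data known. The calls in each list stand beside 22.6% of all genes tested called higher and 22.8% called lower. Of 8 SOX genes, 4 were higher, 3 lower and 1 (Sox1) not called, with a median log2 fold change of 0.53. Sox2, the usual partner of OCT4 on DNA, fell from 309 ± 66.6 to 144 ± 7.86 TPM (SD, n = 3 each), a log2 fold change of -1.15 (SE 0.15, edgeR adjusted p = 0.00146). Sox15, which can also bind beside OCT4, fell from 15.0 ± 4.05 to 1.54 ± 0.476 TPM (log2 fold change -3.33), and Sox17, a factor of endoderm, from 2.03 ± 0.781 to 0.340 ± 0.123 TPM (-2.68). Sox3, which belongs to the same SOXB1 group as Sox2, rose from 8.29 ± 1.97 to 65.1 ± 4.33 TPM (2.93, adjusted p = 9.30e-05). Sox4, Sox11 and Sox18 also rose, by 0.95 to 1.40 on the log2 scale.

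Proteins reported to associate with OCT4 were represented by 15 genes, of which 4 were higher, 6 lower and 5 not called (median -0.10). The 3 called genes that moved most all fell, and all are factors of the naive state. Esrrb went from 230 ± 57.6 to 2.75 ± 0.237 TPM (log2 fold change -6.44, edgeR adjusted p = 1.83e-05), Tfcp2l1 from 139 ± 32.2 to 2.66 ± 0.457 TPM (-5.76) and Nr0b1 from 68.7 ± 13.0 to 2.08 ± 0.440 TPM (-5.09). Otx2, which redirects OCT4 to new sites in EpiLCs, rose from 45.9 ± 15.0 to 175 ± 3.07 TPM (1.87, SE 0.23, adjusted p = 0.00110). The other 3 that rose, the NuRD subunits Mta1 and Mta2 and the repressor Nacc1, did so by 0.26 to 0.46 on the log2 scale.

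Of 10 genes with known octamer or OCT-SOX elements, 3 were higher, 6 lower and Fgf4 was not called (log2 fold change -0.34, edgeR adjusted p = 0.189), with a median of -1.61. Nanog fell from 324 ± 42.4 to 12.0 ± 9.08 TPM (-4.81, adjusted p = 7.03e-04), Zfp42 from 686 ± 93.3 to 33.8 ± 2.99 TPM (-4.40) and Lefty1 from 55.1 ± 14.0 to 5.58 ± 4.65 TPM (-3.36, adjusted p = 0.00425). The 3 that rose were Utf1 (1.13, from 228 ± 43.4 to 519 ± 33.6 TPM), Zscan10 (0.63) and Dppa4 (0.44). Calls in both directions were also common over all genes tested (22.6% higher and 22.8% lower). Nanog and Zfp42 are also among the 9 naive markers. The level of Pou5f1 was not called as changed, and its part in these values was not tested.

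Nuclear receptors that act on Pou5f1 were represented by 11 genes, 9 of which could be tested, with 3 higher, 2 lower and 4 not called (median -0.17). Nr5a2 (LRH-1), an activator of Pou5f1, fell from 48.0 ± 6.66 to 2.50 ± 0.0757 TPM (log2 fold change -4.30, SE 0.14, edgeR adjusted p = 1.58e-05). Nr6a1 (GCNF), a repressor of Pou5f1 during differentiation, rose from 29.2 ± 3.98 to 92.8 ± 10.3 TPM (1.62, SE 0.13, adjusted p = 2.14e-04). Rara, a retinoic acid receptor, fell from 37.2 ± 4.14 to 13.5 ± 0.794 TPM (-1.52), and Rarg (0.87) and Nr2f6 (0.96) rose. The level of Pou5f1 itself had overlapping ranges in the same libraries.

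Cofactors of OCT1 were represented by 7 genes, the B cell coactivator Pou2af1, Hcfc1 and 5 subunits of the snRNA-activating complex. Pou2af1 was listed above 0 in a single library (0.05 TPM) and could not be tested. Of the 6 others, 0 were called by edgeR and 0 had an unadjusted p under 0.05 (log2 fold changes -0.20 to 0.15). DESeq2 called 0 with 0 under the unadjusted threshold, and limma on log2(TPM + 1) called 0 with 1 under it. Hcfc1 was at 136 ± 8.82 and 139 ± 7.46 TPM.

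Targets of class III factors in neural and glial cells were represented by 7 genes, 6 of which could be tested, with 1 higher, 2 lower and 3 not called (median 0.61). Egr2, which OCT6 activates in Schwann cells, fell from 12.3 ± 6.15 to 1.52 ± 0.793 TPM (log2 fold change -3.06, edgeR adjusted p = 0.00370) while Pou3f1 rose. Dll1, a Notch ligand, fell from 12.1 ± 6.36 to 5.89 ± 0.235 TPM (-1.09, adjusted p = 0.0338), a call that was lost when any 1 of the EpiLC replicates was left out (adjusted p = 0.0873 to 0.101). Its level in ESC replicate 1 (19.4 TPM) was above that of the other ESC libraries (9.27 and 7.73 TPM), and without it the log2 fold change of Dll1 was -0.60 (edgeR adjusted p = 0.0239). Myt1l, a neuronal factor, was the gene that rose, from 0.0167 ± 0.0208 to 0.347 ± 0.0764 TPM, and Nes was not called (0.79, edgeR adjusted p = 0.0574).

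Markers of extra-embryonic lineages were also measured, since low OCT4 is known to allow such fates. Of 8 trophectoderm markers, 7 could be tested, 4 were lower in EpiLCs and 3 not called, and their sum was 64.0 to 149 TPM in ESCs and 15.6 to 24.7 TPM in EpiLCs. Eomes made up most of the ESC sum (70.2 ± 38.7 TPM), and Elf5 was at 0.0400 TPM on average. Of 7 primitive endoderm markers, 5 were lower and 2 not called, with sums of 39.5 to 72.9 TPM in ESCs and 10.7 to 11.2 TPM in EpiLCs. Their part in the values of the POU genes was not tested.

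The genes whose pattern over the 6 libraries was most like that of Pou5f1 and of Pou3f1 were found by the root mean square difference of log2 CPM, each gene centred on its own mean, among 8479 genes with a mean of at least 10 TPM. For Pou5f1 they were Xylt2, Prkx, Wrap73, Gm12070 and Mri1, with differences of 0.0352 to 0.0446, and log2 fold changes of 0.03 to 0.14. For Pou3f1 they included Pcdh1, Tubb4a, Tmem54 and Sall2, with differences of 0.168 to 0.249. Pcdh1, a protocadherin, rose from 5.55 ± 0.655 to 80.0 ± 2.16 TPM (log2 fold change 3.79), and Sall2, a zinc finger factor, from 8.63 ± 0.698 to 106 ± 5.76 TPM (3.61). The 6 libraries come from 1 line and fall into 2 groups, so likeness over them is a description.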

How the data were processed

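RNA was measured in 3 ESC and 3 EpiLC libraries by strand-specific, single-end sequencing of polyadenylated RNA with reads of 76 nt. The authors trimmed reads with cutadapt 1.16, aligned them with STAR 2.5.2a to mm10 and counted RefSeq genes with RSEM 1.3.0. The authors deposited expected counts, not normalized, in which a read that maps to several genes is divided between them, and TPM, which RSEM scales for length and depth. Between 4.27% and 4.65% of expected counts were not whole.

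For the tests, expected counts were rounded and fitted with edgeR 4.0.16 (R 4.3.3; TMM factors 0.979 to 1.02, filterByExpr, quasi-likelihood test, Benjamini-Hochberg over 14468 genes, threshold 0.05). The 3 ESC libraries held 22118416, 16967741 and 28521848 counts, the 3 EpiLC libraries 35096210, 33982359 and 30683164. Exact permutation tests were two-sided (scipy 1.17.1). In simulated counts with 200 planted changes, edgeR called 46.9% of 2-fold and 85% of 4-fold changes, with 8 false calls. A gene that was not called may therefore still differ. Sample labels gave the groups and the replicate numbers. P-values measure the spread between cultures of 1 line.

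The POU genes and all lists were chosen with earlier results of these data known. Named genes are the POU genes, Sox2, Nanog, Otx2, at most 3 called genes per list with the largest change and 1 CPM or more on average, the 5 genes most like Pou5f1 and Pou3f1, and the cell type markers. Other list genes were named after their values were seen. The alternatives comprised upper-quartile normalization, DESeq2 1.42.0, no filter, at least 10 counts in every library, the replicate block, leaving out each library, and limma 3.58.1 on log2(TPM + 1) and log2(TPM + 0.1) with a mean of at least 0.1 TPM. Some named genes, list members and 1 alternative are not reported here. Sharing of 76-base stretches was computed from GENCODE vM21 transcripts (GRCm38), positions and promoters come from RefSeq, and no promoter of Pou3f1 or Pou2f3 was used.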

Additional observations from a re-analysis of the deposited data

How the results depend on the processing

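Over 13 alternatives and 26 named genes, 328 of 336 log2 fold changes kept their direction and their side of the threshold. For Pou3f1 they ranged from 3.98 to 4.17, for Pou2f2 from 0.92 to 1.97, for Pou2f3 from -2.05 to -1.39, for Pou4f2 from -3.65 to -1.82 and for Pou6f1 from -2.40 to -1.46. Except for Pou3f1 (lowest without ESC replicate 2), the ends nearest 0 came from limma on log2(TPM + 1), in which the pseudocount shrinks changes of low genes. With at least 10 counts in every library, 1 of the 9 POU genes was called higher, since Pou2f2 had 6 counts in ESC replicate 2 and was no longer tested. Leaving out 1 library gave 2 to 3 POU genes higher and 3 lower, 12 to 16 list genes higher and 15 to 18 lower (15 and 18 with all libraries), and 2144 to 3572 of all genes higher and 2100 to 3609 lower, the lowest counts of all genes being those without EpiLC replicate 1. Without ESC replicate 1 the log2 fold change of Pou5f1 was -0.0064 (edgeR adjusted p = 0.956), on the other side of 0 but not called, and leaving out 1 library gave -0.0064 to 0.13. Limma moved Dll1 to -0.83 (adjusted p = 0.0671) with a pseudocount of 1 and to -0.91 (adjusted p = 0.0574) with a pseudocount of 0.1. Relative to Pou5f1 in place of the median gene, the log2 differences in length were -0.0051 for Pou3f1 and -0.0058 for Pou2f1. The ratio of Pou3f1 to Pou5f1 differed by 3.90 to 4.18 on the log2 scale when 1 library was left out and by 4.01 on counts. Depth limits Pou3f2, Pou3f3 and Pou5f2, which rest on 49 counts or fewer per group.

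Libraries of the same replicate number deviated from their group means with correlations of 0.0067, 0.186 and 0.170 for numbers 1, 2 and 3, so the numbers were not taken to pair the samples. Of the 6 libraries, 4 correlated best with the library of their own number in the other group. With the replicate block, 2 POU genes were higher and 3 lower, 16 list genes higher and 19 lower, and 2979 of all genes higher and 3106 lower. Pou3f1 was at 4.07 and Pou5f1 at 0.07 in that fit.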
